A study of Mus musculus with 6 samples.

Results

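The genes described here are 37 transcripts of macrophages, monocytes, neutrophils and dendritic cells, followed through RNA sequencing libraries of T cells. They were chosen from a fixed list of symbols, matched to the Ensembl identifiers of the count files, and all 37 were found among the 55416 genes in the files. The macrophage and monocyte group held 23 genes, the neutrophil group 6 and the dendritic group 8. The libraries were made from spleen cells purified as CD3+, CD3 being the protein complex that signals for the T cell receptor. All recipients were wild-type C57BL/6 mice, and the 2 groups were recipients of isografts (3 libraries) and recipients of allografts (3 libraries). An isograft comes from a genetically identical donor and an allograft from a genetically different one. The growth protocol in the labels also describes serum-containing culture medium, shared by both groups. The sources used here do not name the donor strain, the organ, the time after grafting or the age of the mice. Whether each library is a different mouse is also unstated, and p-values therefore describe library-to-library spread, possibly only technical. The comparison asks how much myeloid and dendritic RNA the T cell libraries carried and whether it differed between allograft and isograft recipients.

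Macrophages of the spleen clear old blood cells and debris, neutrophils are short-lived phagocytes with preformed granules, and dendritic cells take up antigen and present it to T cells. Each lineage is recognised by receptors and secreted proteins that T cells mostly lack, such as the growth factor receptor CSF1R and the complement chain genes C1qa, C1qb and C1qc for macrophages. Several other myeloid genes are also transcribed by natural killer (NK) cells, B cells or activated T cells, among them the signalling adaptors Tyrobp and Fcer1g. In a bulk library, fewer cells of a type and less RNA per cell cannot be told apart.

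Library totals ran from 30066137 to 37821738 counts. The labelled cell type was checked against its markers: Cd3e, the CD3 epsilon chain, stood at 30.05 ± 0.735 CPM per kilobase (SD, n = 3) in isograft and 19.4 ± 3.06 in allograft libraries, where CPM is the count per 1000000 counts after edgeR's TMM scaling. B cell RNA was also present: Cd79b and Cd79a, chains of the B cell receptor, stood at 103.5 and 72.9 CPM per kilobase in isograft and 56.5 and 42.4 in allograft libraries, above Cd3e, and Ms4a1, the B cell protein CD20, at 20.1 and 23.1. Summed over each list, 12 B cell markers reached 1817 and 1631 CPM and 15 T cell markers 2101 and 1903 CPM. Ncr1, a receptor of NK cells, was at 1.81 and 2.59 CPM per kilobase.

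All 37 genes together made up 0.0520% to 0.0595% of the counts of a library. The genes that fell in allograft libraries were the macrophage genes Lyz2, Csf1r and Adgre1. Of the genes that rose, 8 belong to a list of members that lymphocytes may also transcribe, drawn up with earlier results of these data known. Among them are Cd68 and, with an uncertain place on the list, Zbtb46 and Axl. Which cells the RNA came from was not tested. Most members did not pass the test. Of the 37 genes, 34 passed edgeR's low-count filter, and 3 (S100a8, Siglech and Cd209a) did not. Of those 34, 10 rose and 3 fell by edgeR's quasi-likelihood test with Benjamini-Hochberg adjustment over all 14926 genes tested, at a threshold of 0.05. Over all genes tested, 57.8% were called, 28.7% higher and 29.1% lower. The members' share was 38.2% in all, 29.4% higher and 8.82% lower, so the rises were near the background share and the falls below it. With library totals in place of TMM, 7 members rose and 7 fell. That scaling moved the median log2 fold change of all genes by -0.22, with 2973 genes higher and 6093 lower against 4283 and 4349.

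**Figure D1:**
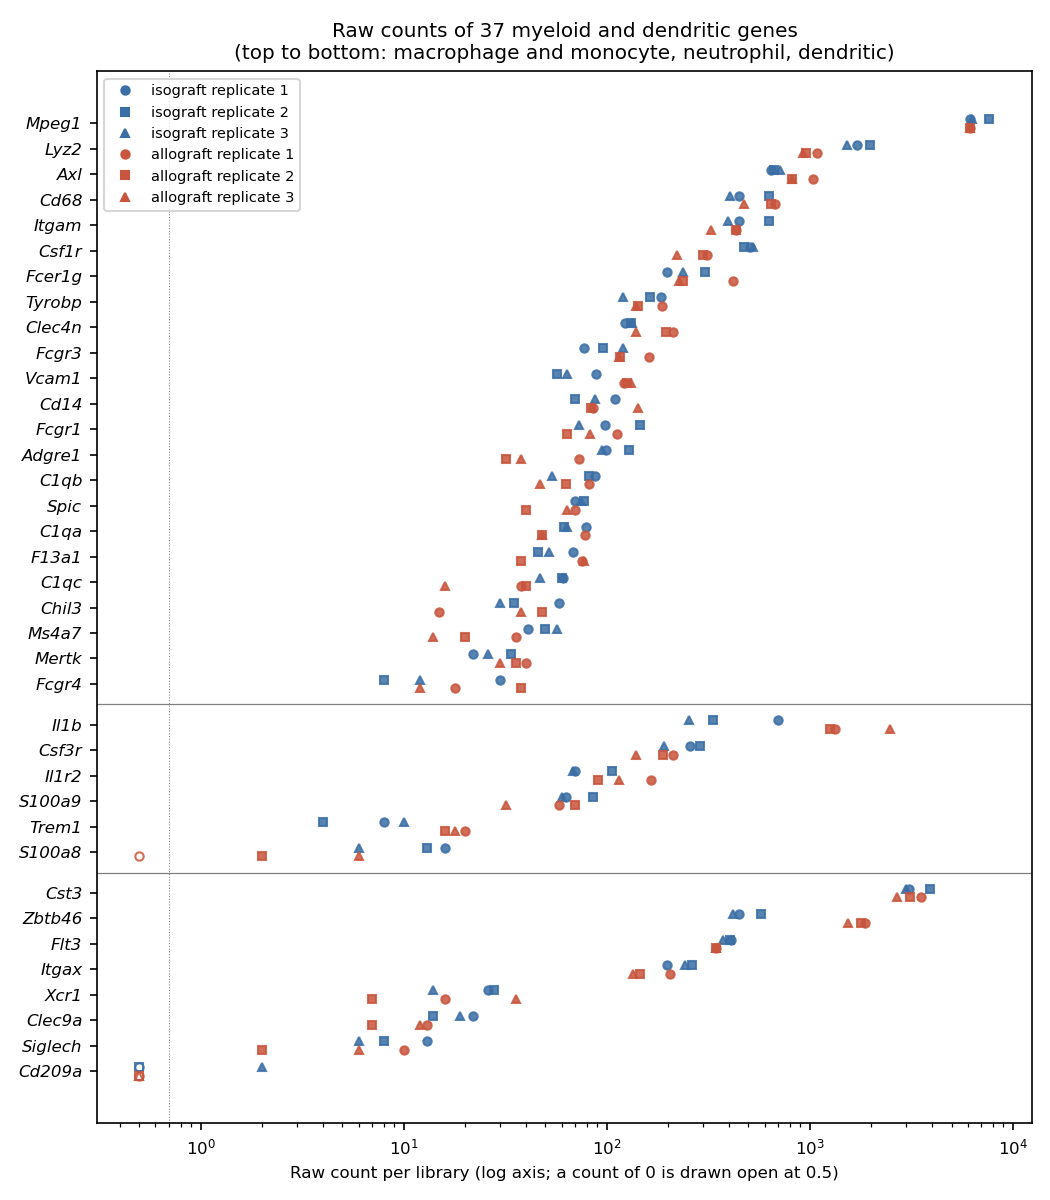
Raw counts of each of the 37 genes in each library (horizontal log axis), 1 line per gene, ordered by total count within the macrophage and monocyte, neutrophil and dendritic groups; colours are the 2 groups, symbols the replicates, and open symbols at 0.5 mark a count of 0. Counts reached 7691 for Mpeg1 and were 0 in 5 of 6 libraries for Cd209a, while the allograft symbols of Zbtb46 and Il1b lie to the right of all isograft ones.

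The promoters of the 3 activating Fc gamma receptors of the list are shown because these genes share a function and each holds a motif of a myeloid transcription factor. Fc gamma receptors bind the constant part of IgG antibodies. The sequences are RefSeq's, on build GRCm38.p6, written 5′ to 3′ on the strand of the gene and covering the 250 bases before the start: chr3:96293970-96294219 on the minus strand for Fcgr1, chr1:171059404-171059653 on the minus strand for Fcgr3, and chr1:171018676-171018925 on the plus strand for Fcgr4. Capitals mark GAGGAAG on the opposite strand, a core of the motif of PU.1, the transcription factor of myeloid and B cells.
Fcgr1: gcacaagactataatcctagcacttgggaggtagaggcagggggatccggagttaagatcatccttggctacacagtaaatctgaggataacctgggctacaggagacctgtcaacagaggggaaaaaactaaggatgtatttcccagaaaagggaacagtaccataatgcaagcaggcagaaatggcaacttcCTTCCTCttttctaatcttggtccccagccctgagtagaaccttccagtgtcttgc
Fcgr3: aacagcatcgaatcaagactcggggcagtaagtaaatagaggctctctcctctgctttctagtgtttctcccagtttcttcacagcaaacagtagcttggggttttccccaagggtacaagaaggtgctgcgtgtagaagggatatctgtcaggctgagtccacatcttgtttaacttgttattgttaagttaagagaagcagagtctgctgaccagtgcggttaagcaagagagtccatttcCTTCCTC
Fcgr4: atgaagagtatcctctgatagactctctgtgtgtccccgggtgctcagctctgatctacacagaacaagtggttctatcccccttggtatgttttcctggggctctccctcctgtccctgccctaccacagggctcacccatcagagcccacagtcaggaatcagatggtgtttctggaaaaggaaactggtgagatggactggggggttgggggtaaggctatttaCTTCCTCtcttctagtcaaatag
The match began 56 bases before the start in Fcgr1, 7 in Fcgr3 and 23 in Fcgr4. Of the 30 members with an entry in the promoter table, 9 held GAGGAAG on either strand in this window (30%), against 3244 of 27025 genes (12.004%). These were Axl, C1qc, Csf3r, F13a1, Fcgr1, Fcgr3, Fcgr4, Itgam and S100a8, of which 2 rose, 0 fell, 6 did not pass the test and S100a8 was not tested. Over all genes tested, 28.7% were called higher and 29.1% lower. The C/EBP core TTGCGCA was in 0 of the 30 and in 1.95% of all genes. A match is a description of letters and not a binding site.

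Fcgr3, the receptor CD16, which NK cells also carry, had raw counts of 77, 96 and 120 in isograft and 162, 117 and 115 in allograft libraries (replicates 1, 2 and 3 in this order here and below). After scaling, all allograft libraries were above all isograft libraries, at 2.81 ± 0.805 against 4.44 ± 0.652 CPM, and Fcgr3 rose by 0.66 ± 0.22 (log2 fold change ± SE, allograft minus isograft, adjusted p = 0.0137). Fcgr1, the high-affinity receptor of macrophages, had 98, 146 and 73 against 112, 64 and 83 counts, a log2 fold change of -0.02 ± 0.24 (adjusted p = 0.952). Fcgr4 was scarce, with 8 to 30 counts in isograft and 12 to 38 in allograft libraries, and its difference was not detectable at this depth (0.66 ± 0.56, adjusted p = 0.329). Fcgr3 was no longer called with total counts (0.44, adjusted p = 0.0825), nor after leaving out isograft replicate 1 (0.55, adjusted p = 0.0626), isograft replicate 2 (0.55, adjusted p = 0.0679) or allograft replicate 1 (0.53, adjusted p = 0.0712).

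Fcer1g, the Fc receptor gamma chain that Fcgr1, Fcgr3 and Fcgr4 need at the surface, had 198, 306 and 237 counts in isograft and 420, 238 and 227 in allograft libraries. It rose by 0.51 ± 0.18 (adjusted p = 0.0256), from 6.97 ± 0.859 to 9.91 ± 3.07 CPM, with allograft replicate 1 at 13.5 CPM and the other two at 8.21 and 8.07. Without allograft replicate 1 its log2 fold change was 0.21 (adjusted p = 0.273), without isograft replicate 1 it was 0.41 (0.100), and with total counts 0.29 (0.167). Tyrobp, the adaptor DAP12 of myeloid and NK receptors, had 121 to 185 counts in isograft and 139 to 187 in allograft libraries and did not pass (0.24 ± 0.19, adjusted p = 0.271). Of 10 NK cell markers 2 rose, 1 fell and 7 did not pass, where 28.7% of all genes tested were called higher and 29.1% lower. Their summed level was 60.3 to 67.4 CPM in isograft and 82.6 to 88.0 in allograft libraries. Without Eomes, a transcription factor of NK cells and of some T cells, it was 49.5 to 53.2 and 46.0 to 51.1 CPM. Leaving out Eomes, which rose, while keeping Gzma, the marker that fell, was a choice made after seeing the data. With total counts the log2 ratio of the sums without Eomes was -0.27, against -0.05 with TMM. Ncr1 did not pass (0.52 ± 0.23, adjusted p = 0.0584). Their part in the results for Fcgr3 and Fcer1g was not tested.

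The members that fell were 3 macrophage and monocyte genes. Lyz2, the secreted lysozyme of myeloid cells (chromosome 10, 117113236 to 117118226, GRCm39), had 1706, 1980 and 1536 counts in isograft and 1092, 963 and 925 in allograft libraries. It went from 49.4 ± 1.92 to 33.7 ± 1.13 CPM (log2 fold change -0.55 ± 0.08, adjusted p = 6.62e-06). Lyz2 has a near-identical neighbour, Lyz1, so reads that map to both are probably missing from its count and its level is uncertain. Csf1r, the receptor for the macrophage growth factors CSF1 and IL-34, had 507, 476 and 529 against 314, 298 and 222 counts. Its level went from 14.5 ± 2.48 to 9.41 ± 1.32 CPM (log2 fold change -0.62 ± 0.14, adjusted p = 9.85e-04). Adgre1, the gene of the macrophage surface protein F4/80 (chromosome 17, 57665691 to 57790527), had 99, 129 and 95 against 73, 32 and 38 counts and a log2 fold change of -0.92 ± 0.27 (adjusted p = 0.00592). For all 3 genes every allograft library was below every isograft library in CPM. Csf1r shares 873 of its 5774 exon bases with Hmgxb3 on the other strand, and counting did not use strand.

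Among further macrophage members, Ms4a7 and the 3 C1q chain genes did not pass. Ms4a7, a membrane protein gene of tissue macrophages, had 41, 50 and 57 counts in isograft and 36, 20 and 14 in allograft libraries (-0.84 ± 0.37, adjusted p = 0.0584). It passed with total counts (-1.07, adjusted p = 0.0162), with a filter of 1 CPM in 3 libraries (-0.84, 0.0426) and without allograft replicate 1 (-1.25, 0.0144). C1qa, C1qb and C1qc encode the 3 chains of C1q, which starts the classical complement pathway, and lie side by side on chromosome 4 between 136607440 and 136626114. Their counts were 62 to 79, 54 to 88 and 47 to 61 in isograft libraries and 48 to 78, 47 to 82 and 16 to 40 in allograft libraries. C1qa (-0.00 ± 0.27, adjusted p = 0.992) and C1qb (0.03 ± 0.26, adjusted p = 0.940) overlapped between groups. C1qc lay lower in every allograft library but did not pass (-0.59 ± 0.34, adjusted p = 0.144), except with total counts (-0.81, adjusted p = 0.0420). The level of C1qa was 1.47 to 2.40 CPM per kilobase over the 6 libraries and that of C1qb 1.54 to 2.45, while C1qc was at 0.295 to 0.955.

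Among the macrophage and monocyte genes that rose, Axl, a receptor tyrosine kinase for the uptake of dying cells, had the smallest p. Its counts were 649, 667 and 713 in isograft and 1038, 815 and 819 in allograft libraries, and it rose from 19.4 ± 2.90 to 30.2 ± 2.73 CPM (0.64 ± 0.11, adjusted p = 6.64e-05). Mertk, a receptor of the same family, had 22 to 34 against 30 to 40 counts and did not pass (0.63 ± 0.35, adjusted p = 0.137), although its allograft libraries were all above the isograft ones in CPM. Per kilobase, Axl stood 16.9 to 25.4 times above Mertk in the 6 libraries. Vcam1, an adhesion molecule of red pulp macrophages and vessel linings, had 89, 57 and 64 against 122, 126 and 132 counts and rose by 1.09 ± 0.23 (adjusted p = 4.87e-04). Spic, the transcription factor of red pulp macrophages, which B cells transcribe too, did not pass (-0.10 ± 0.26, adjusted p = 0.757), with 70 to 77 counts in isograft and 40 to 70 in allograft libraries.

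Cd68, a lysosomal glycoprotein, had 449, 628 and 407 counts in isograft and 677, 648 and 475 in allograft libraries, and rose from 13.9 ± 1.43 to 20.3 ± 2.98 CPM (0.54 ± 0.12, adjusted p = 7.50e-04). Clec4n, the fungal sugar receptor dectin-2, had 123, 132 and 134 against 213, 196 and 139 counts and rose by 0.74 ± 0.18 (adjusted p = 0.00171). It was the member of this group that rose without being on the list of genes that lymphocytes may also transcribe. Mpeg1, the pore-forming perforin-2 of phagocytes and of B cells, had the most counts of all members, at 6169, 7691 and 6288 against 6174, 6164 and 6194 counts. Per kilobase it stood at 44.0 and 48.5 CPM, below Cst3 of the dendritic group at 74.6 and 83.6. Mpeg1 made up 53.4% to 60.0% of the summed CPM of its group in each library and did not pass (0.14 ± 0.07, adjusted p = 0.0908), except without allograft replicate 1 (0.17, 0.0411). With total counts its value was -0.08.

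The other members of this group overlapped between groups and did not pass. Cd14, a co-receptor for lipopolysaccharide, had 70 to 110 counts in isograft and 84 to 142 in allograft libraries (0.46 ± 0.27, adjusted p = 0.162). Itgam, the integrin chain CD11b, had 397 to 633 against 327 to 434 counts (-0.04 ± 0.12, adjusted p = 0.797). It shares 3450 of its 5024 exon bases with the predicted gene Gm49368 on the same strand, so reads there are left out by the counting tool's defaults and its level is too low. F13a1, the coagulation factor XIII A chain of monocytes, had 46 to 68 against 38 to 77 counts (0.44 ± 0.31, adjusted p = 0.236). Chil3, a chitinase-like protein of activated macrophages with a close copy in the genome, had 30 to 58 against 15 to 48 counts (-0.03 ± 0.42, adjusted p = 0.961). In all, 6 of the 23 macrophage and monocyte genes rose, 3 fell and 14 did not pass, where 28.7% of all genes tested were called higher and 29.1% lower. The median log2 fold change was 0.14 against -0.01 for all genes tested. All 23 passed the filter.

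**Figure D2:**
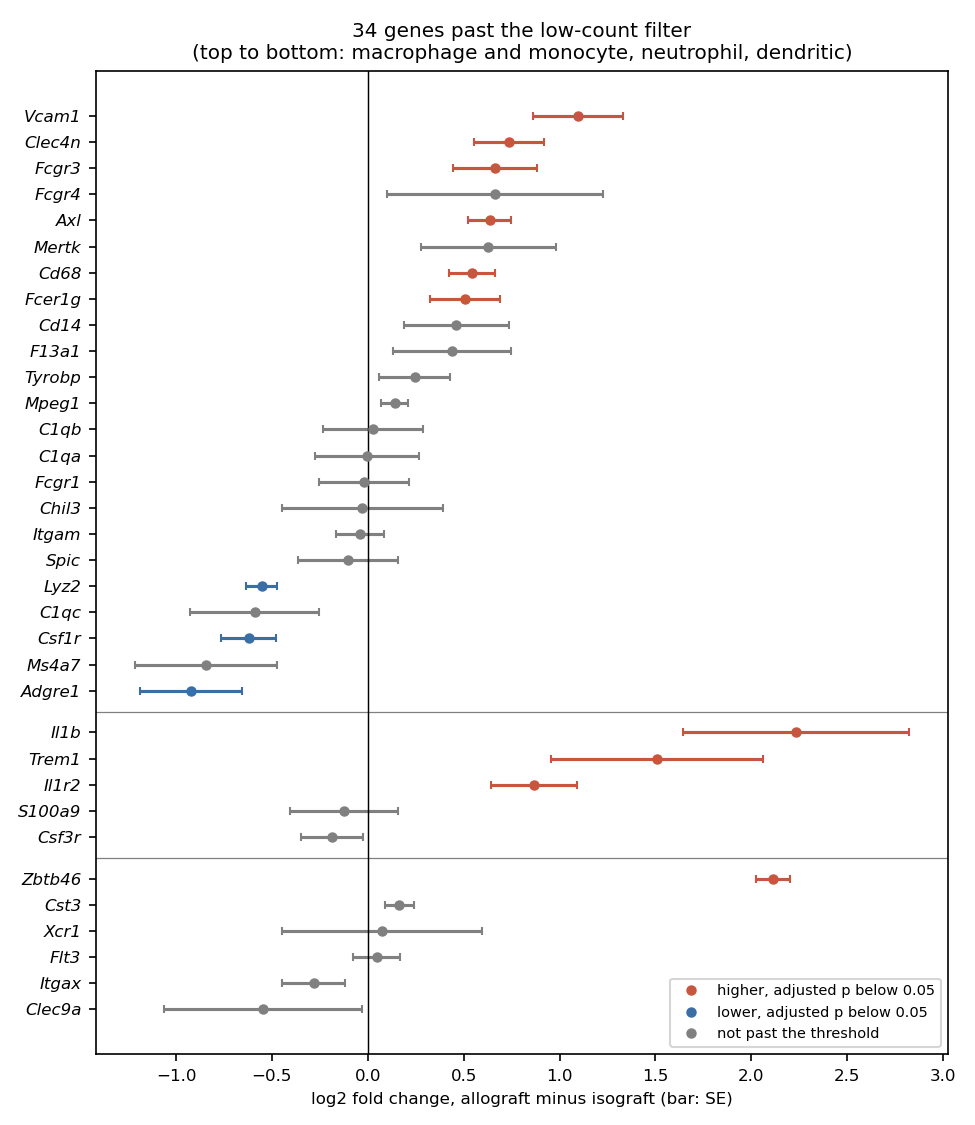
Log2 fold change of the 34 genes past the low-count filter (horizontal axis, allograft minus isograft, bar: SE), with macrophage and monocyte, neutrophil and dendritic genes from top to bottom; red and blue mark genes past the threshold of 0.05 and grey the rest. Zbtb46 (2.11) and Il1b (2.23) lie farthest to the right, the second with a wide bar, and Adgre1, Csf1r and Lyz2 are the 3 blue points.

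In the neutrophil group the 3 members that rose are cytokine and receptor genes, while the calprotectin genes had few counts and were not called. Il1b, the inflammatory cytokine interleukin 1 beta (chromosome 2, 129206490 to 129213059), had 697, 336 and 255 counts in isograft and 1341, 1267 and 2487 in allograft libraries. It rose from 12.4 ± 7.48 to 58.4 ± 26.0 CPM (log2 fold change 2.23 ± 0.59, adjusted p = 0.0321). Groups did not overlap, but isograft replicate 1 and allograft replicate 3 each held about as much as their group's other libraries together. Leaving out isograft replicate 2 (adjusted p = 0.0994), isograft replicate 3 (0.0981), allograft replicate 1 (0.0614), allograft replicate 2 (0.0653) or allograft replicate 3 (0.0762) ended the call, as did omitting the filter (0.0659), with log2 fold changes between 1.79 and 2.41. Monocytes, macrophages and dendritic cells make Il1b too.

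Il1r2, the decoy receptor that binds interleukin 1 without signalling and is carried by neutrophils and by some activated T cells, had 70, 106 and 68 against 165, 91 and 115 counts. It rose from 2.28 ± 0.286 to 4.17 ± 1.08 CPM (0.87 ± 0.22, adjusted p = 0.00259). Trem1, an amplifying receptor of neutrophils and monocytes, had 8, 4 and 10 against 20, 16 and 18 counts and rose by 1.51 ± 0.55 (adjusted p = 0.0256). That call rests on few counts and ended with total counts (1.29, adjusted p = 0.0524), with no filter (1.48, 0.0671), and on leaving out isograft replicate 2 (1.13, 0.111), allograft replicate 1 (1.46, 0.0551) or allograft replicate 3 (1.47, 0.0520). With a filter of 1 CPM in 3 libraries it was not tested.

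S100a8 and S100a9, the paired subunits of calprotectin and among the most abundant transcripts of neutrophils, had low counts. S100a8 had 16, 13 and 6 counts in isograft and 0, 2 and 6 in allograft libraries. A count of 0, as in allograft replicate 1, allows up to 3 counts, or 0.0961 CPM, for counting error alone and if counts are independent. S100a9 had 63, 86 and 60 against 58, 70 and 32 counts and did not pass (-0.12 ± 0.28, adjusted p = 0.730). Csf3r, the receptor for the neutrophil growth factor G-CSF, had 192 to 288 against 140 to 213 counts and did not pass (-0.19 ± 0.16, adjusted p = 0.339), except with total counts (-0.41, 0.0348).

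Il1b alone was 40.3% to 62.7% of the summed CPM of the neutrophil group in isograft and 74.6% to 88.9% in allograft libraries. Without it the sum was 10.5 to 12.5 CPM in isograft and 11.1 to 14.6 in allograft libraries, and the groups overlapped. Of 22 further neutrophil genes, 16 did not pass the low-count filter and had 0 to 74 counts over the 6 libraries together, while the 6 that passed had 70 to 2511. The values differed from gene to gene, and the examples here were named after they were seen. Ctsg, a serine protease of neutrophil granules, had 0 counts in all 6 libraries, and Ly6g, a neutrophil surface marker, had 4 counts, all in allograft replicate 2. The granule gene Ngp had 4, 34 and 8 counts in isograft and 18, 6 and 4 in allograft libraries, and the granule collagenase gene Mmp8 had 43, 75 and 50 against 37, 20 and 16. Groups did not overlap in CPM for 3 of the 22 genes above and 3 below, against 31.3% and 32.1% of all genes tested. Those below were Mmp8, Ltf (19, 18 and 6 against 0, 4 and 2 counts) and Mmp9 (6, 12 and 10 against 0, 2 and 4). Those above were Clec5a, Hp and Camp, the last with 2, 0 and 0 against 2, 2 and 2 counts.

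Zbtb46 had the smallest p of all members. It encodes a transcription factor of conventional dendritic cells (chromosome 2, 181029555 to 181101219) and had 450, 575 and 421 counts in isograft and 1883, 1781 and 1552 in allograft libraries. Its level rose from 13.6 ± 0.528 to 59.0 ± 3.34 CPM (log2 fold change 2.11 ± 0.09, adjusted p = 1.73e-13), and lay between 2.08 and 2.15 when any 1 library was left out. No other dendritic gene of the list passed. Flt3, the growth factor receptor of dendritic cells and their precursors, had 375 to 411 counts in isograft and 344 to 345 in allograft libraries (0.05 ± 0.12, adjusted p = 0.769). Itgax, the integrin chain CD11c, had 198 to 262 against 135 to 205 counts (-0.28 ± 0.17, adjusted p = 0.153), and it passed as lower with total counts (-0.50, 0.0112) and without allograft replicate 1 (-0.44, 0.0391).

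The genes that define dendritic subsets were at trace counts. Xcr1, a chemokine receptor, and Clec9a, a receptor for dead cells, both mark cross-presenting dendritic cells. Xcr1 had 26, 28 and 14 counts in isograft and 16, 7 and 36 in allograft libraries (0.08 ± 0.52, adjusted p = 0.914). Clec9a had 22, 14 and 19 against 13, 7 and 12 counts (-0.55 ± 0.52, adjusted p = 0.382), and shares 184 exon bases with Clec1b. Siglech, a marker of plasmacytoid dendritic cells, had 13, 8 and 6 against 10, 2 and 6 counts. Cd209a, a lectin of monocyte-derived and type 2 conventional dendritic cells with close copies in the genome, had 2 counts in isograft replicate 3 and 0 elsewhere, which allows up to 0.0740 to 0.107 CPM in each of the other libraries.

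Cst3, the protease inhibitor cystatin C, which many cell types secrete, was the most abundant gene of the dendritic group at 3081, 3925 and 2993 against 3549, 3139 and 2689 counts. It did not pass (0.16 ± 0.08, adjusted p = 0.0714), except without allograft replicate 3 (0.22, 0.0127), and with total counts its value was -0.06. Cst3 and Zbtb46 together were 83.8% to 90.7% of the group's summed CPM. The sum of the other members was 17.7 to 20.5 CPM in isograft and 17.5 to 19.0 in allograft libraries, so the groups overlapped without these genes.

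Members were also divided by whether B cells, NK cells or activated T cells may transcribe them, a division made with earlier results of these data known and given without a test. It rests on general knowledge, is least certain for Zbtb46, Axl, Vcam1 and Il1b, and does not show which cells the RNA came from. In the neutrophil group Il1b was 12.4 of the 14.7 CPM of the shared genes in isograft libraries. In allograft libraries it was 58.4 of 62.5 CPM. The 15 genes taken as shared with lymphocytes were Itgam, Fcgr3, Cd68, Tyrobp, Fcer1g, Mpeg1, Vcam1, Spic, Axl, Il1b, Il1r2, Flt3, Zbtb46, Itgax and Cst3. Of these 8 rose and 0 fell, where 28.7% of all genes tested were called higher and 29.1% lower, and their median log2 fold change was 0.51 against -0.01. Of the other 22 genes 19 were tested, and of these 2 rose (Clec4n and Trem1), 3 fell and 14 did not pass, with a median of -0.02. The summed level of the 15 shared genes went from 397.2 ± 3.91 to 544.6 ± 15.4 CPM, and that of the other 22 from 98.3 ± 6.71 to 78.4 ± 4.72 CPM. In both cases no library of one group reached into the other. The largest rises in CPM among the 15 were those of Zbtb46 (13.6 to 59.0) and Il1b (12.4 to 58.4). With total counts the log2 ratio of the sums was 0.23 for the 15 genes and -0.55 for the 22, against 0.46 and -0.33 with TMM. Within the macrophage and monocyte group the 9 shared genes summed to 252.0 to 262.6 CPM in isograft and 297.4 to 301.9 in allograft libraries. The other 14 genes summed to 81.6 to 93.4 and 65.1 to 72.8 CPM. With total counts the log2 ratio of the sums was 0.01 for those 9 genes and -0.57 for those 14, against 0.23 and -0.35 with TMM, so the higher sum of the 9 depended on the scaling. With TMM the lower sum of the 14 was carried by Lyz2 and Csf1r. Without these genes, a choice made after seeing the data, the isograft sum of the remaining 12 was 23.5 ± 2.78 CPM and the allograft sum 25.5 ± 1.98 CPM, with overlap between libraries. Of the 22 members not taken as shared with lymphocytes, the 20 left without them summed to 34.4 ± 3.80 and 35.4 ± 2.68 CPM, again with overlap. With total counts the log2 ratio of the sums was -0.10 for the 12 genes and -0.18 for the 20. With TMM it was 0.12 and 0.04, so its direction depended on the scaling.

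**Figure D3:**
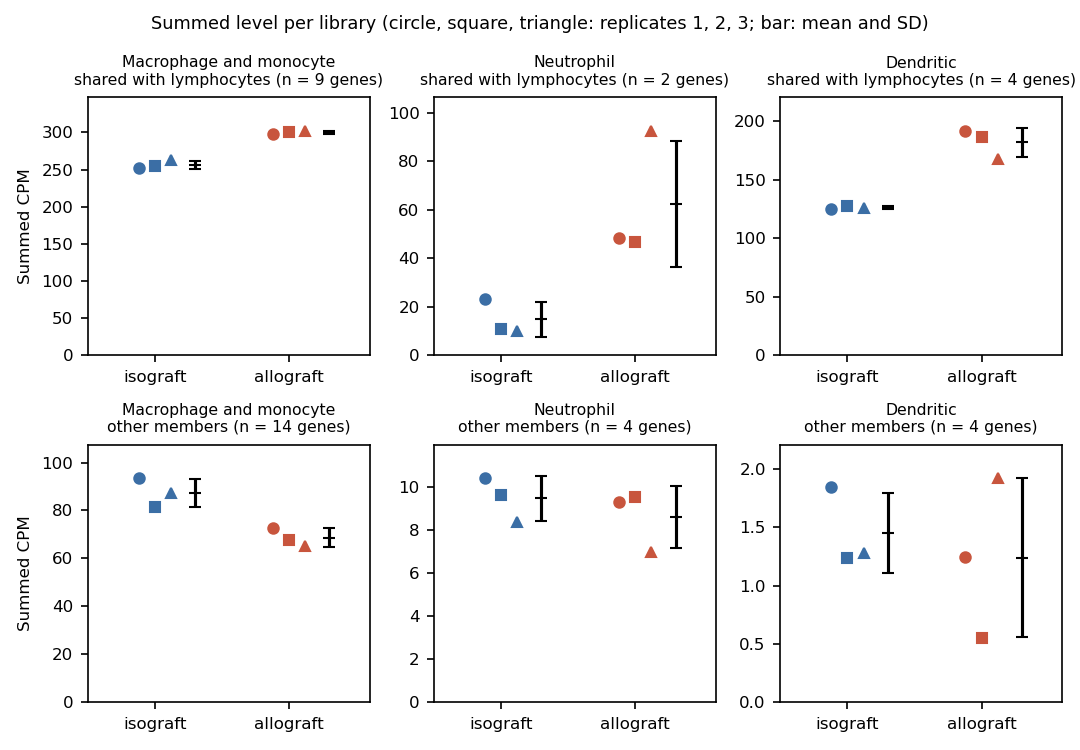
Summed CPM per library (vertical axes start at 0) of the macrophage and monocyte, neutrophil and dendritic genes. Genes taken as shared with lymphocytes, a division made with earlier results known, are above and the other members below. Bars give the mean and SD of 3 libraries. Allograft libraries lie above isograft libraries in all upper panels, where Il1b rose most in the neutrophil and Zbtb46 in the dendritic sum. They lie below isograft libraries for the 14 other macrophage and monocyte genes, a sum carried by Lyz2 and Csf1r. For the other neutrophil and dendritic genes the groups overlap.

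Groups did not overlap in CPM for 12 of the 37 members in the higher and 5 in the lower direction, 32.4% and 13.5%, against 31.3% and 32.1% of all genes tested. Beside the 13 genes that passed the test these were Mpeg1 and Mertk above and C1qc and Ms4a7 below.

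Other genes of these lineages and pathways were taken from lists also drawn up with earlier results known. Over all genes tested, 28.7% were called higher and 29.1% lower. Of 32 further macrophage genes tested 9 rose and 8 fell, and the median of the list was -0.11 (log2 fold change). Lilrb4a, an inhibitory receptor, rose by 1.19 ± 0.08, Cybb, the catalytic chain of the phagocyte oxidase, which B cells transcribe too, by 0.80 ± 0.07, and the lipoprotein gene Apoe fell by 1.06 on the log2 scale. Cebpa, a transcription factor of myeloid precursors and monocytes, was named after its values were seen. It had 96, 65 and 84 counts in isograft and 9, 12 and 9 in allograft libraries and fell. Cebpb, also named after its values were seen, had 109, 123 and 114 against 252, 213 and 186 counts and rose. Hmox1, Msr1 and Clec4e of this list rose too, so the fall of Cebpa does not stand for the list. Genes of resident macrophages, also named after their values were seen, were unequal. Cd163 and Vsig4, both receptors, had 0 counts in all 6 libraries. Marco, a scavenger receptor, had 328 to 374 counts in isograft and 241 to 285 in allograft libraries and did not pass (-0.21 ± 0.13, adjusted p = 0.172). Slc40a1, the iron exporter, had 30, 48 and 32 against 6, 12 and 2 counts and fell (log2 fold change -2.17 ± 0.52, adjusted p = 0.00138). Of the 6 further neutrophil genes tested 3 rose and 1 fell: Clec5a, a receptor of myeloid cells, rose by 0.79 ± 0.11, the haptoglobin gene Hp by 0.94 ± 0.20, and Mmp8 had a log2 fold change of -0.94 ± 0.35. Fpr2, a formyl peptide receptor, was the other gene that rose.

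Of 21 further dendritic genes tested 9 rose and 6 fell, against 28.7% and 29.1% of all genes tested. The median of this list was -0.04. Cd83, a surface protein of mature dendritic cells and of activated lymphocytes, went from 102.2 ± 7.26 to 540.3 ± 17.97 CPM. The chemokine gene Ccl22 rose by 1.46 ± 0.13, and Xcl1, the ligand of XCR1 that T and NK cells secrete, by 4.77 ± 0.17, while its receptor gene had 7 to 36 counts. Of 18 growth factor and chemokine genes that act on myeloid cells 10 rose and 0 fell, with a median of 0.56, against 28.7% and 29.1% of all genes tested. Csf2, the gene of GM-CSF, rose from 0.703 ± 0.142 to 7.68 ± 0.902 CPM and the chemokine gene Ccl4 by 2.79 ± 0.14. Of 20 Fc receptor signalling genes 4 rose and 9 fell, with a median of -0.14. The kinase gene Btk fell by 1.08, the lipid kinase gene Pik3cd by 0.96 and the lipid phosphatase gene Inpp5d by 0.78 on the log2 scale. These are expressed by lymphocytes as well.

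Of 12 complement genes tested 3 rose and 3 fell, where 28.7% of all genes tested were called higher and 29.1% lower. C3, the central component, rose by 1.02 ± 0.10, Cr2, a receptor of B cells, by 0.87 ± 0.09, and Cd55, an inhibitor of complement on many cells, fell from 129.9 ± 10.3 to 45.9 ± 3.11 CPM. Among 19 genes of the interleukin 1 pathway 8 rose and 4 fell, beside the same shares of all genes tested. Il1rn, the receptor antagonist, went from 43.8 ± 1.86 to 134.9 ± 2.61 CPM. Il18r1, a chain of the interleukin 18 receptor, had a log2 fold change of -0.94 ± 0.11, and Pycard, the inflammasome adaptor, one of -1.46 ± 0.18.

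Markers of the other cell types that the fraction could hold were counted in the same fit, where 28.7% of all genes tested were called higher and 29.1% lower. T cell markers rose in 5 and fell in 7 of 15 cases (Cd5 and Zap70 higher and Cd247 lower among the smallest p), and their sum was 2066 to 2144 CPM in isograft and 1819 to 2024 in allograft libraries. B cell markers rose in 3 and fell in 6 of 12 cases (Ralgps2, Fcrla and Cd79b lower), with sums of 1751 to 1850 against 1592 to 1670 CPM. The NK markers that rose were Eomes and Cd244a, and Gzma fell. Of the plasma cell markers 5 were tested, Prdm1 rose and Sdc1 fell, and of the erythroid markers 2 were tested and 0 passed. The platelet marker tested, Itga2b, fell, and the basophil, mast cell and eosinophil marker tested, Prg2, did not pass (0.34 ± 0.56, adjusted p = 0.629). Of the stromal and endothelial markers Pecam1, which lymphocytes also carry, fell and Kdr did not pass. Summed basophil, mast cell and eosinophil markers were at 0.592 to 1.000 CPM. The part of these cell types in the results for the myeloid genes was not tested.

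The low counts on which many members rest had a regular pattern. In each library 1846 to 1930 genes had a count of 2 but only 887 to 1017 a count of 1, and 912 to 1019 genes had a count of 4 but only 383 to 465 a count of 3. Even numbers made up 64.1% to 66.4% of counts from 1 to 9, 60.95% to 62.8% from 10 to 29, and 53.7% to 55.9% from 30 to 99. Among the members, 83 of 111 library counts from 1 to 99 were even (74.8%), against 46 of 105 counts of 100 or more (43.8%). The pattern was present in all 6 libraries, and its cause was not tested. Limits given for a count of 0 cover counting error only. They take counts as independent, which the excess of even counts puts in doubt, so they may be too low. When all counts were halved and rounded up before the fit, all 13 called members kept their call and Ms4a7 passed as lower (-0.85, adjusted p = 0.0467).

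**Figure D4:**
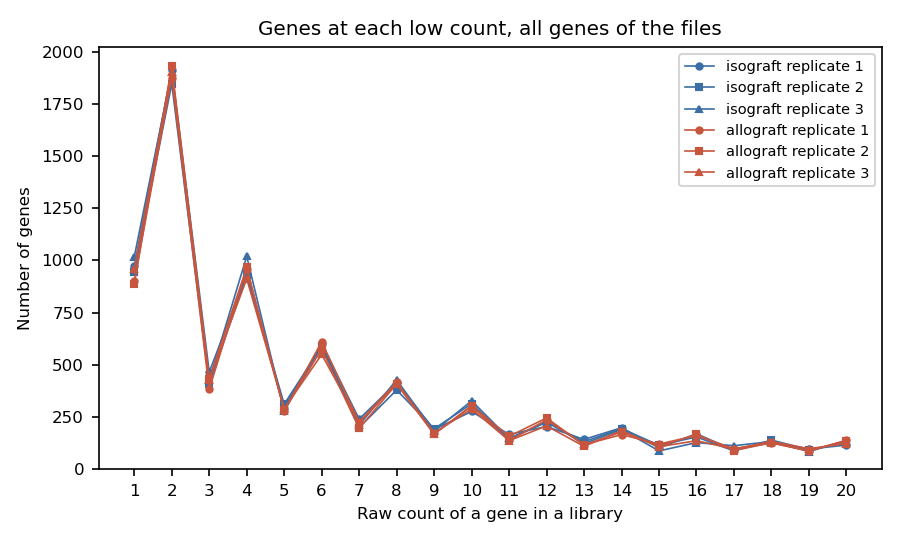
Number of genes (vertical axis) at each raw count from 1 to 20 (horizontal axis), 1 line per library. The lines of all 6 libraries rise at even and dip at odd counts, from 1846 to 1930 genes at a count of 2 against 887 to 1017 at a count of 1, and the zigzag fades toward higher counts.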

How the data were processed

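Count tables from 6 RNA sequencing libraries were used. The authors used featureCounts 1.6.0 in paired mode over exons, with Ensembl annotation release 104 (GRCm39), per the file headers, on HISAT alignments of unstated version. Builds GRCm38 and mm10 are named instead in the submitters' processing notes. The deposited values are raw counts. The recorded command sets no strand or multi-mapping option, so strand is not used and, by default, multi-mapped reads and reads shared by overlapping genes are left out.

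Symbols were matched for 52083 of 55416 genes (93.99%). Genes were kept by filterByExpr (14926), scaled by TMM and tested with edgeR 4.0.16 (quasi-likelihood, robust, Benjamini-Hochberg over all genes, R 4.3.3); each SE was derived from the fold change and its F statistic. limma 3.58.1 and DESeq2 1.42.0 gave alternatives, and matplotlib 3.10.9 the plots. Sums and lists got no test. All 37 members are named, and up to 3 called genes of smallest p per other list. Members and lists were chosen with earlier results of these data known. The fit was tested on simulated data. Within groups, pairs of libraries differed by a chi-square per degree of freedom of 10.5 to 22.4, above sampling noise. Promoters matched by symbol for 30 of 37 members. Protein sequences were not used here. The values of 1 planned reference gene are not reported here.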

Additional observations from a re-analysis of the deposited data

How the results depend on the processing

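Of 539 values of single members under 16 alternatives, 509 kept their direction or lack of a call and their side of the threshold, 20 lost and 10 gained a call, and 0 calls turned round. RLE scaling, DESeq2, limma-voom, non-robust estimation and leaving out immunoglobulin, hemoglobin and mitochondrial genes kept all 13 called members and added none. Members that fell were 3, but 7 with total counts, and 3 to 5 when 1 library was left out, with 5 without allograft replicate 1; members that rose were 7 to 9. Halving the counts, leaving out Eomes from the NK markers, and leaving out Lyz2 and Csf1r below were chosen after seeing the data.

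The log2 ratio of summed levels, allograft to isograft, was 0.10 for macrophage and monocyte genes. It was -0.12 with total counts, 0.0501 without Mpeg1 and 0.0677 per kilobase. Without the genes taken as shared with lymphocytes it was -0.35. With Lyz2 and Csf1r left out too it was 0.12, or -0.10 with total counts. For neutrophil genes it was 1.56, with 0.12 without Il1b and -0.14 without the genes taken as shared with lymphocytes, Il1b among them. For dendritic genes it was 0.52, with 0.30 with total counts, 1.22 without Cst3, -0.23 without the genes taken as shared with lymphocytes and 0.23 per kilobase. The causes of shifts between scalings were not tested.

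Replicate numbers are shared by the groups, and the labels state no pairing. Deviations of same-numbered libraries correlated at -0.06, 0.00 and -0.03, and 0 of 6 libraries correlated best with its own number. With 3 libraries per group these values cannot settle whether libraries were paired. With the replicate number as a block, 4064 genes were higher and 4152 lower, and 8 members rose and 3 fell. Fcer1g (0.47, adjusted p = 0.0605) and Il1b (2.27, adjusted p = 0.113) were not called there.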
